A study of Mus musculus with 6 samples.

Results

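Complement genes of the mouse prefrontal cortex were followed through 6 bulk RNA libraries. The 9 genes were chosen by symbol: C1qa, C1qb, C1qc, C1ra, C2, C3 and C4b, which encode components of the cascade, and Serping1 and Cd55, which encode inhibitors of it. They are 9 of the 54429 gene symbols counted in each library, and all 9 were abundant enough to be tested. The tissue was whole prefrontal cortex from mice aged 6 to 8 weeks, injected with the adeno-associated virus AAV9. In 3 libraries, called GFP here, the virus carried green fluorescent protein. In the 3 others, called Kmt5b shRNA, it carried a short hairpin RNA against Kmt5b, a methyltransferase of histone H4 lysine 20. Both groups thus carried a viral injection, and an uninjected group was not analysed here. By the labels the mice were C57BL6/J, by the design text a C57BL/6 x C3H cross, and the design text counts 2 GFP mice where the labels name 3 GFP libraries. A pair of GFP libraries may therefore share a mouse, in which case p-values measure only the spread between these libraries.

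Complement is a cascade of proteins that tags cells and debris for removal. In its classical pathway the recognition protein C1q binds a target and activates the proteases C1r and C1s. C1s cleaves C4 and C2, and the resulting enzyme cleaves C3. In the brain, C1q is made mainly by microglia, C3 and C4 largely by astrocytes and other glia, and tagging by C1q and C3 is known for its part in the removal of synapses. Serping1 encodes the C1 inhibitor, which blocks C1r and C1s, and Cd55 encodes decay-accelerating factor, a membrane protein that dismantles the enzymes that cleave C3.

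The libraries held 29490771 to 74723284 counts, and values below are CPM, read counts set against library sizes scaled by the trimmed mean of M values, in the order of replicates 1, 2 and 3. Kmt5b itself averaged 82.4 ± 3.59 CPM under GFP and 70.9 ± 8.42 CPM under the hairpin (SD, n = 3 per group) and did not pass (edgeR quasi-likelihood adjusted p = 0.303). Its level in Kmt5b shRNA replicate 2, 80.3 CPM, was inside the GFP range, so each direction below rests on the labels. Reads of genes with near-identical relatives can be split between copies. In a fit of all 24419 genes tested 676 were higher and 1390 lower. A fit of the 15778 protein-coding genes tested gave 471 higher and 184 lower. In a fit of the 12104 protein-coding genes that share no sequence with another gene or pseudogene 54 were higher and 27 lower. This last fit thus differs from the first in type of gene as well as in shared sequence. Members are given from the fit of all genes and from that of genes sharing no sequence. The latter takes in C1qa, C1qb, C1qc, C3 and Serping1. A further 4, C1ra, C2, C4b and Cd55, have near-identical relatives or share exons with another gene.

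The promoters of 5 of the 9 members matched the RefSeq table of promoter windows (GRCm38.p6), each running from 250 bases before the RefSeq start to 50 after it. The gene spans given below are from GENCODE M21, and its starts differ for C1ra, C1qb and C1qc. For C1ra and C1qc the RefSeq start lies inside that span, so part of the sequence before it is within the gene. Those of C1ra and C3, whose CPM did not overlap between the groups, are shown with those of C1qb and C1qc, whose CPM did. C1qa, C2, C4b and Serping1 are named only. Capitals mark matches to any of 4 motifs, searched on both strands. They were the interferon-gamma activated site TTCNNNGAA (in 8.3% of 32851 promoter windows of this length), a core of the interferon-stimulated response element, GAAANNGAA (8.56%), the C/EBP motif TTGCNNAA (10.8%) and the PU.1 core GAGGAA (28.3%). The windows are C1ra at chr6:124512371-124512670 (plus strand), C3 at chr17:57228087-57228386 (minus strand), C1qb at chr4:136886151-136886450 (minus strand) and C1qc at chr4:136892865-136893164 (minus strand), each printed 5′ to 3′ on the gene's own strand.
C1ra: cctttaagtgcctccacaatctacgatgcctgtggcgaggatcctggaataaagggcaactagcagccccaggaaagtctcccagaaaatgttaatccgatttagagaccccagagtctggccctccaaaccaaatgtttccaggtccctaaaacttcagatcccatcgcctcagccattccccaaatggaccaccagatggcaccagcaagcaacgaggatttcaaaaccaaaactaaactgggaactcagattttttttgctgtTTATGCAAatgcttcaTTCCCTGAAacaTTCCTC
C3: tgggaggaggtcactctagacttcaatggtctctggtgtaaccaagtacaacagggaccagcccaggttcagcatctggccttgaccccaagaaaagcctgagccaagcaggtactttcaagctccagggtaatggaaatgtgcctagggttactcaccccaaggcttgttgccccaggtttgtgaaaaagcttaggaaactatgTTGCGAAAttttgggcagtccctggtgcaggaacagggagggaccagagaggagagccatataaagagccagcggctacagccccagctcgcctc
C1qb: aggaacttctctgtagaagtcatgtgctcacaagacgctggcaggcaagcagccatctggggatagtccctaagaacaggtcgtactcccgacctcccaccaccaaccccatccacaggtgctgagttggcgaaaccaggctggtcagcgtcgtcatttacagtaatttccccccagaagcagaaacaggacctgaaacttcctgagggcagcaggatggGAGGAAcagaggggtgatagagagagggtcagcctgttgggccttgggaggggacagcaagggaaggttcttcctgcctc
C1qc: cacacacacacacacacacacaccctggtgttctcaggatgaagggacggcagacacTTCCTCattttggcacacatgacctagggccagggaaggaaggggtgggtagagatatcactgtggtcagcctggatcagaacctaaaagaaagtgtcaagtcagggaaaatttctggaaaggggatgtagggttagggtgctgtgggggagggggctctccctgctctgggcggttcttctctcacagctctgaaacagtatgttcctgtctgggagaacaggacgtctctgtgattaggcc
The C1ra window held 3 matches, all after the RefSeq start: TTATGCAA, a C/EBP match on the other strand, from position 17, TTCCCTGAA from position 33 and TTCCTC, the PU.1 core on the other strand, from position 45. The C3 window held the C/EBP match TTGCGAAA at -45. C1qb had the PU.1 core at -30 and C1qc at -193 on the other strand. Neither these windows nor that of Cd55 held GAAANNGAA, and Cd55 matched none of the 4 motifs. The printed matches do not overlap one another. A match describes the letters of the window and is not a measured binding site.

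C1q levels differed by less than the spread between libraries. Its 3 chains are encoded side by side on chromosome 4, with C1qa at 136895917 to 136898803, C1qc at 136889804 to 136893065 and C1qb at 136880129 to 136886187 (mm10, minus strand). C1qa, the A chain, was at 90.5, 133 and 136 CPM in the GFP libraries and at 84.2, 89.8 and 142 CPM in the Kmt5b shRNA libraries. Kmt5b shRNA replicate 3 was the highest of all 6 and replicate 1 of the same group the lowest, so the groups overlapped. The means were 120.0 ± 25.6 and 105 ± 31.8 CPM (SD, n = 3 per group), a log2 fold change of -0.19 ± 0.25 (SE), with a 95% interval from -0.78 to 0.41 and an edgeR quasi-likelihood adjusted p of 0.807. C1qb, the B chain, was at 72.8, 97.2 and 89.8 against 70.9, 69.2 and 115 CPM, a log2 fold change of -0.02 ± 0.21 (interval -0.50 to 0.45). C1qc, the C chain, was at 71.3, 95.2 and 97.2 against 78.3, 69.5 and 116 CPM, a log2 fold change of 0.00 ± 0.20 (interval -0.46 to 0.46). In both, Kmt5b shRNA replicate 3 was again the highest library. Adjusted p-values by the edgeR quasi-likelihood test were 0.978 for C1qb and 0.997 for C1qc. Among genes sharing no sequence they were 0.774 for C1qa, 0.968 for C1qb and 0.995 for C1qc.

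The chains kept similar proportions in every library. C1qa stood at 1.24, 1.37 and 1.52 times C1qb under GFP and at 1.19, 1.30 and 1.23 times under the hairpin, ranges that overlap. Summed over the 3 chains, C1q reached 235, 326 and 323 CPM against 233, 229 and 373 CPM (two-sided exact permutation p = 0.8). The sums thus moved more between libraries of 1 group than between the group means of 295 and 278 CPM. With 1 library left out at a time, log2 fold changes ran from -0.45 to -0.05 for C1qa, from -0.30 to 0.10 for C1qb and from -0.24 to 0.15 for C1qc. In each case the lowest value came without Kmt5b shRNA replicate 3. A change inside the intervals above is not excluded by these libraries.

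**Figure D1:**
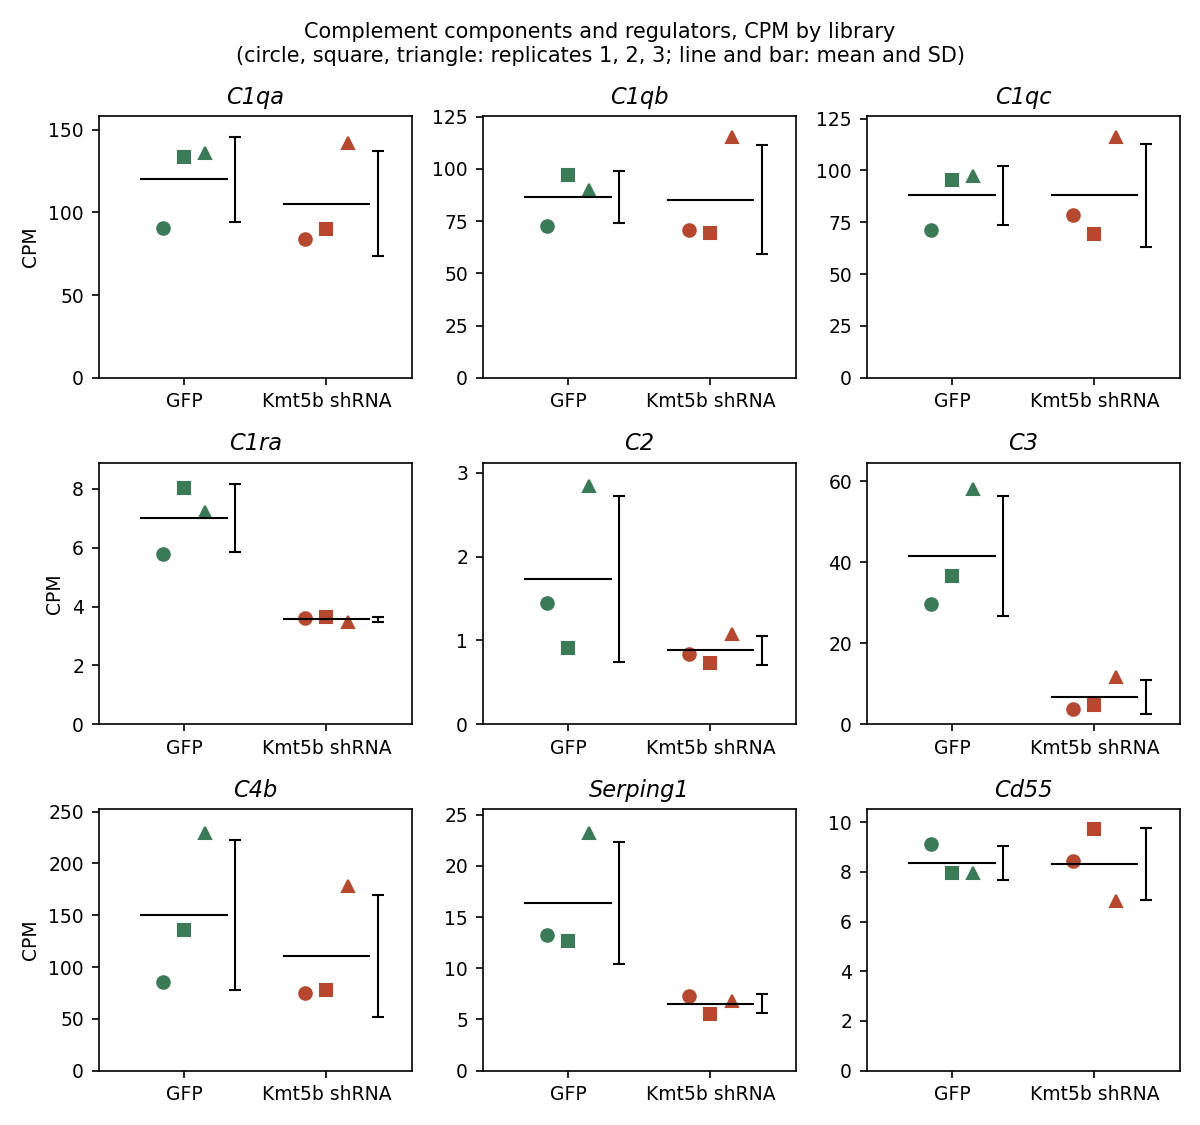
CPM (y axes, each from 0) of the 9 complement genes in 3 GFP libraries (green) and 3 Kmt5b shRNA libraries (red), with circles, squares and triangles for replicates 1, 2 and 3 and the mean and SD as a line and bar. C1ra, C3 and Serping1 do not overlap between the groups, while C1qa, C1qb, C1qc, C2, C4b and Cd55 do.

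C1ra, the transcript of the protease that C1q activates, fell in the Kmt5b shRNA libraries. It encodes C1r, the first protease of the classical pathway, and lies on chromosome 6 from 124512405 to 124523443 (plus strand). It was at 5.77, 8.04 and 7.21 CPM in the GFP libraries and at 3.60, 3.64 and 3.46 CPM in the Kmt5b shRNA libraries. Every Kmt5b shRNA library lay below every GFP library, and the 3 Kmt5b shRNA values were within 1.05 times of each other. Means were 7.01 ± 1.15 and 3.57 ± 0.0917 CPM (SD, n = 3 per group), a log2 fold change of -0.97 ± 0.18 (SE), with an interval from -1.36 to -0.58 and an edgeR quasi-likelihood adjusted p of 0.00208. Its two-sided exact permutation test gave 0.1, the smallest p that 3 against 3 libraries can give. C1ra passed in all 6 fits of all genes with a library left out, with log2 fold changes of -1.09 to -0.86 and adjusted p up to 0.0157. Its transcript is 97.9% identical over 2432 nucleotides to C1rb, a near copy, so reads could be split between the genes. C1rb drew 11, 9 and 14 counts from the GFP libraries but 0, 2 and 1 from those with the hairpin. With the counts of C1rb added, the C1ra log2 fold change became -1.0 (edgeR adjusted p = 0.0015).

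The partner protease C1s moved the same way as C1r. C1s1, which encodes it and lies next to C1ra on chromosome 6 (124530345 to 124542359, minus strand), belonged to the list of classical pathway genes rather than to the 9. It was at 3.03, 3.16 and 5.10 CPM in the GFP libraries and at 0.984, 1.14 and 1.28 CPM in the Kmt5b shRNA libraries, with no overlap. The log2 fold change was -1.74 ± 0.27 (SE) and the edgeR quasi-likelihood adjusted p 0.000317. C1s1 also passed with any 1 library left out. C1s1 shares 96.0% identity over 2644 nucleotides with C1s2, so its value carries the same uncertainty as that of C1ra. C1s2 itself was at or below 0.334 CPM in every library.

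C2 and C4b, the substrates of C1s, did not pass. Both lie in the major histocompatibility region of chromosome 17 on the minus strand, C2 from 34862604 to 34898265 and C4b from 34728380 to 34743882. C2 was scarce, at 1.45, 0.911 and 2.84 CPM against 0.843, 0.732 and 1.08 CPM. GFP replicate 3 stood well above the other 5 libraries, and GFP replicate 2 lay within the Kmt5b shRNA range. Its log2 fold change was -1.0 ± 0.38 (SE), with an interval from -1.80 to -0.19 and an edgeR quasi-likelihood adjusted p of 0.151. Without GFP replicate 3 it was -0.44 (adjusted p = 0.687), and without GFP replicate 2 it was -1.27 and passed (adjusted p = 0.0488). C2 shares exons with the gene model Gm20547, which is listed at 0 counts in every library. It also overlaps Zbtb12 on the other strand, a gene with 94 to 224 counts a library.

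C4b, which encodes C4, was among the most abundant of the 9 and varied widely between libraries of a group. It was at 85.9, 136 and 229 CPM in the GFP libraries and at 75.3, 77.6 and 178 CPM in the Kmt5b shRNA libraries. Replicate 3 was the highest of each group, and the groups overlapped. The log2 fold change was -0.45 ± 0.57 (SE), with an interval from -2.0 to 1.11 and an edgeR quasi-likelihood adjusted p of 0.809. Leaving out GFP replicate 3 gave -0.00 and leaving out Kmt5b shRNA replicate 3 gave -0.97, so either library decided it. C4a, which is 96.0% identical over 5378 nucleotides, was at 2.45, 6.31 and 10.2 CPM against 2.60, 2.69 and 3.77 CPM (log2 fold change -1.07 ± 0.49, edgeR adjusted p = 0.35). Reads could thus be split between C4a and C4b.

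C3, at which the pathways of complement meet, had the lowest ratio between groups of the 9. The gene lies on chromosome 17 from 57203970 to 57228136 (minus strand). It was at 29.8, 36.5 and 58.2 CPM in the GFP libraries, from 1992, 1123 and 4553 counts, and at 3.78, 4.71 and 11.6 CPM in the Kmt5b shRNA libraries, from 215, 219 and 637 counts. The lowest GFP library was 2.56 times the highest Kmt5b shRNA library. The GFP mean of 41.5 ± 14.8 CPM was 6.19 times the Kmt5b shRNA mean of 6.70 ± 4.28 CPM (SD, n = 3 per group). In log2 terms the difference was -2.63 ± 0.58 (SE), with an interval from -4.21 to -1.05.

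Whether C3 passed depended on how its own spread was weighed. The edgeR quasi-likelihood fit with its robust option, which lets a gene that varies more than most keep a larger error, gave an adjusted p of 0.0917 over all genes and 0.110 among genes sharing no sequence. Without that option the edgeR adjusted p was 0.000238, where 5.79% of genes passed as lower. The adjusted p was 0.00018 with limma voom (5.6% lower) and 8.15e-05 with DESeq2 (4.17% lower). In the robust fit C3 passed in 1 of 6 fits with a library left out, that without Kmt5b shRNA replicate 3 (log2 fold change -3.29, edgeR adjusted p = 0.00989). The weakest C3 log2 fold change with a library left out was -2.30, without GFP replicate 3, and the fit without the robust option called C3 in all 6. The two-sided exact permutation p of C3 was 0.1, the smallest possible.

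The C1 inhibitor transcript fell under the hairpin. Serping1 lies on chromosome 2 from 84765387 to 84775444 (minus strand) and was at 13.2, 12.7 and 23.2 CPM in the GFP libraries and at 7.33, 5.51 and 6.76 CPM in the Kmt5b shRNA libraries. GFP replicate 3 was the highest library, and the lowest GFP library was 1.73 times the highest Kmt5b shRNA library. Means were 16.4 ± 5.93 and 6.53 ± 0.931 CPM (SD, n = 3 per group), a log2 fold change of -1.33 ± 0.22 (SE), with an interval from -1.82 to -0.84 and an edgeR quasi-likelihood adjusted p of 0.00179. Serping1 passed in all 6 fits of all genes with a library left out (adjusted p up to 0.032), with log2 fold changes from -1.48 to -0.99, the last without GFP replicate 3. Among genes sharing no sequence its edgeR adjusted p was 0.0448. There it passed in 1 of 6 fits with a library left out, that without GFP replicate 1, with adjusted p from 0.0229 to 0.151. The two-sided exact permutation p was 0.1.

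Cd55, the membrane inhibitor, showed no shift beyond its spread. It lies on chromosome 1 from 130439027 to 130462744 (minus strand). The GFP libraries were at 9.13, 7.97 and 7.96 CPM and the Kmt5b shRNA libraries at 8.43, 9.73 and 6.84 CPM, so the Kmt5b shRNA range enclosed the GFP range. The log2 fold change was -0.01 ± 0.16 (SE), with an interval from -0.35 to 0.34 and an edgeR quasi-likelihood adjusted p of 0.991. Its relative Cd55b, 91.9% identical over 1157 nucleotides, had at most 4 counts in any library. The antisense gene Gm16083 overlaps Cd55 over 169 nucleotides with 40 to 86 counts a library, and whether the counting used strand is not given in the sources used here.

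The inhibitor was compared with C1q and with C3 inside each library, where library size cancels. Under GFP the log2 ratio of Serping1 to summed C1q was -4.15, -4.68 and -3.80, and under the hairpin it was -4.99, -5.37 and -5.79. Each Kmt5b shRNA library thus held less Serping1 per C1q than any GFP library, with a difference of means of -1.18 (two-sided exact permutation p = 0.1, the smallest possible). Taking C1qa, C1qb or C1qc alone gave -1.07, -1.22 and -1.26. The log2 ratio of Serping1 to C3 was -1.17, -1.53 and -1.33 against 0.956, 0.225 and -0.78, and this difference of 1.47 had the opposite sign (two-sided exact permutation p = 0.1). Serping1 transcript was scarcer relative to C1q and more abundant relative to C3 in the Kmt5b shRNA libraries. C1ra in place of Serping1 gave differences of -0.86 against C1q and 1.79 against C3, with no overlap in either.

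**Figure D2:**
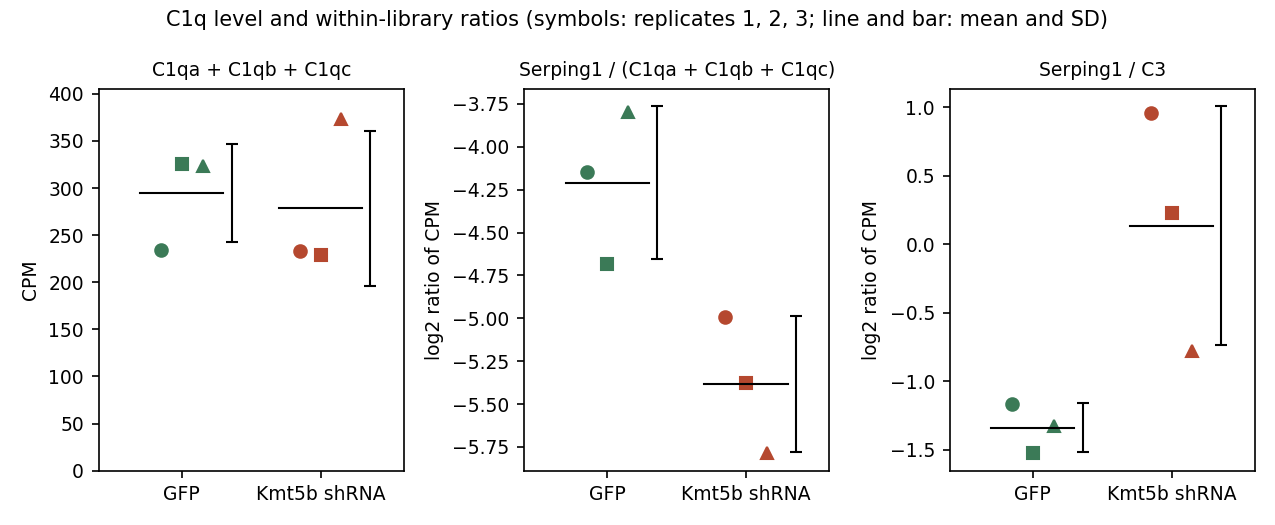
Summed C1q CPM (left, linear axis from 0) and the log2 ratio of Serping1 CPM to summed C1q (middle) and to C3 (right) in each GFP (green) and Kmt5b shRNA (red) library, with replicates 1, 2 and 3 as circles, squares and triangles and the mean and SD as a line and bar. Summed C1q overlaps between the groups, while the Serping1 to C1q ratio is lower by 1.18 and the Serping1 to C3 ratio higher by 1.47 in the Kmt5b shRNA libraries, without overlap.

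Per kilobase of annotated exons, the C1q genes were the most abundant of the 9 in both groups. C1qa had a mean level of 115 CPM per kilobase in the GFP and 101 in the Kmt5b shRNA libraries, C1qb 79.6 and 78.2, and C1qc 45.5 and 45.6. The C1qa and C1qb ranges overlapped within each group. C4b followed at 26.4 and 19.4 CPM per kilobase, and its GFP range of 15.1 to 40.3 overlapped that of C1qc, at 36.9 to 50.3. In the Kmt5b shRNA libraries C4b, at 13.2 to 31.3, lay below every C1qc value. In the GFP libraries C3 came next at 8.07 CPM per kilobase and Serping1 at 7.05, with overlapping ranges. In the Kmt5b shRNA libraries this order was turned, with Serping1 at 2.81 and C3 at 1.30 CPM per kilobase and ranges that did not overlap. C1ra was at 2.35 and 1.20, Cd55 at 1.72 and 1.72, and C2 was lowest at 0.448 and 0.228 CPM per kilobase. In the Kmt5b shRNA libraries the C3 range of 0.735 to 2.26 CPM per kilobase enclosed the means of both C1ra and Cd55.

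Of the 9 members, 2 passed as lower (C1ra and Serping1) and 0 as higher in the fit of all genes, where 8.46% of 24419 genes passed, 5.69% as lower and 2.77% as higher. All 9 are also in a fit of protein-coding genes only, where the same 2 passed. There 4.15% of 15778 genes passed, 184 as lower and 471 as higher, so lower calls were scarcer among protein-coding genes. At an unadjusted p under 0.05 the edgeR test gave 4 members, which adds C2 and C3, all 4 with negative log2 fold changes, where 10.2% of all genes tested were lower at that threshold. The members' median log2 fold change was -0.45, against -0.02 over all genes tested. CPM did not overlap between the groups for 3 members, all lower in the Kmt5b shRNA libraries, where 12.7% of all genes tested were lower and 9.84% higher without overlap. Among genes sharing no sequence, 1 of the 5 members fitted passed (Serping1), where 0.669% passed, 0.223% as lower and 0.446% as higher. Of those 5, C3 and Serping1 did not overlap, where 8.55% of the genes in that fit were lower and 10.3% higher without overlap.

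**Figure D3:**
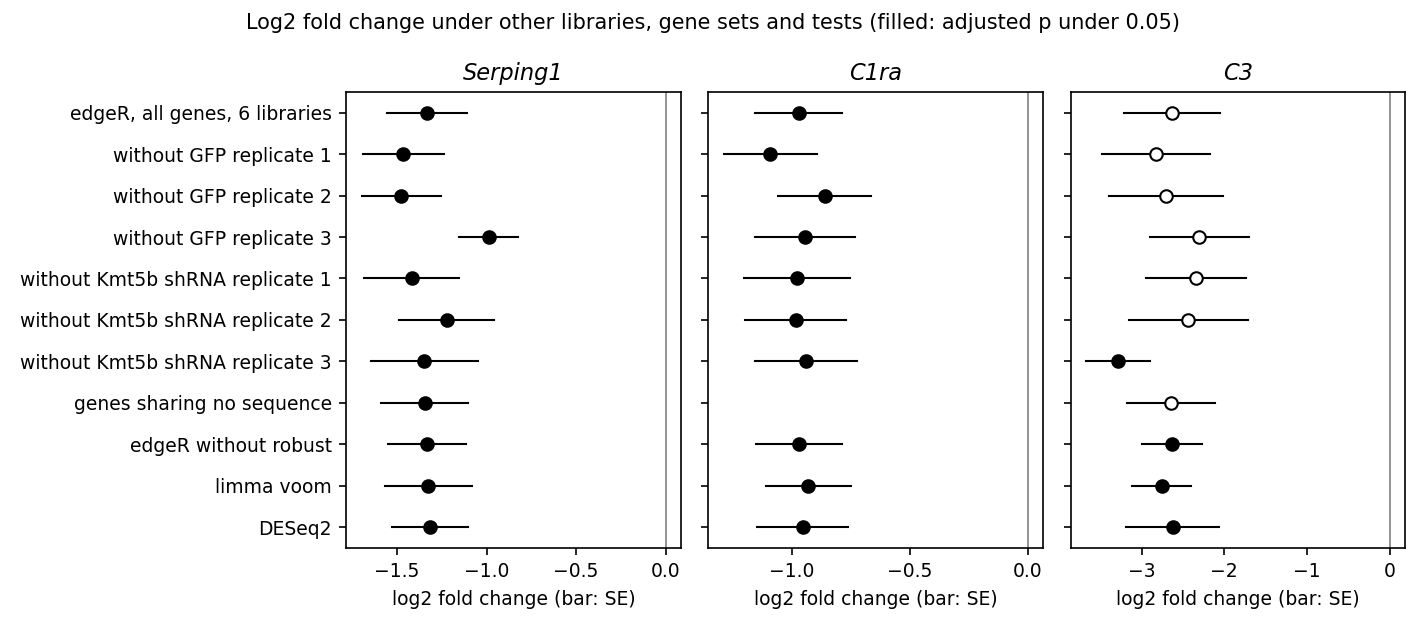
Log2 fold change with its SE (x axes) of Serping1, C1ra and C3 in the fit of all genes, with each library left out, among genes sharing no sequence, and by other tests, with filled circles where the adjusted p was under 0.05. Serping1 and C1ra are filled throughout, C1ra being absent from the genes sharing no sequence, while C3 is filled only without Kmt5b shRNA replicate 3 and by edgeR without the robust option, limma voom and DESeq2.

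The rest of the pathway was read from lists that hold 58 complement genes, members included, of which 44 were tested. Of these, 4 were lower (C1ra, C1s1, Serping1 and Clu) and 0 higher. Over all genes tested, 5.69% passed as lower and 2.77% as higher, the shares against which each list below is read. In the fit of 15778 protein-coding genes, 184 passed as lower and 471 as higher, and the same 4 of 43 pathway genes passed. The median log2 fold change of the 44 was -0.01, near that of all genes. In the classical pathway 2 of 9 tested genes passed, both proteases of the C1 complex. In the lectin pathway, whose collectins and proteases start the cascade on sugars, 0 of 4 passed, and Mbl1 had 0 counts in every library. The protease Masp1 was at 12.8 ± 0.656 CPM under GFP and 14.1 ± 2.38 CPM under the hairpin, and the collectin Colec12 at 15.7 ± 0.333 and 14.9 ± 2.31 CPM (SD, n = 3 per group). Besides C3, properdin (Cfp), which stabilises the C3-cleaving enzyme of the alternative pathway, did not pass (log2 fold change -0.34, edgeR adjusted p = 0.407), and 0 of 3 genes in that list did. Cfb, the other gene tested there, was scarce, at 0.0976 to 0.780 against 0.0646 to 0.237 CPM. Its log2 fold change was -1.73, with an interval from -3.17 to -0.30 (edgeR adjusted p = 0.164), and it passed only without a filter on low counts. Of the terminal pathway, which forms the membrane pore, 3 genes were tested and 0 passed. C8g, the most abundant of them, was at 2.0 ± 0.307 and 1.99 ± 0.288 CPM (SD, n = 3 per group), and C7 had a log2 fold change of -0.12.

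Receptors for complement fragments did not pass either, 0 of 7. Itgam and Itgb2 encode the chains of complement receptor 3, by which microglia bind tagged material, and had log2 fold changes of -0.21 ± 0.16 and -0.40 ± 0.31 (SE, edgeR adjusted p = 0.592 and 0.637). Among regulators, 2 of 18 passed, both lower, where 5.69% of all genes tested passed as lower. Clusterin (Clu), a secreted chaperone that inhibits the terminal pore and is abundant in astrocytes, was at 603, 718 and 643 CPM in the GFP libraries and at 508, 486 and 421 CPM in the Kmt5b shRNA libraries. Its groups did not overlap, and the change in log2 terms came to -0.47 ± 0.11 (SE), with an edgeR adjusted p of 0.0107. Clu passed in 4 of 6 fits of all genes with a library left out, lost without GFP replicate 2 or Kmt5b shRNA replicate 3 (adjusted p up to 0.0703), and did not pass among genes sharing no sequence (edgeR adjusted p = 0.0587). Csmd1, a neuronal membrane regulator of C3, was at 263 ± 15.8 CPM under GFP and 296 ± 31.0 CPM under the hairpin (SD, n = 3 per group), with an edgeR adjusted p of 0.484.

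**Figure D4:**
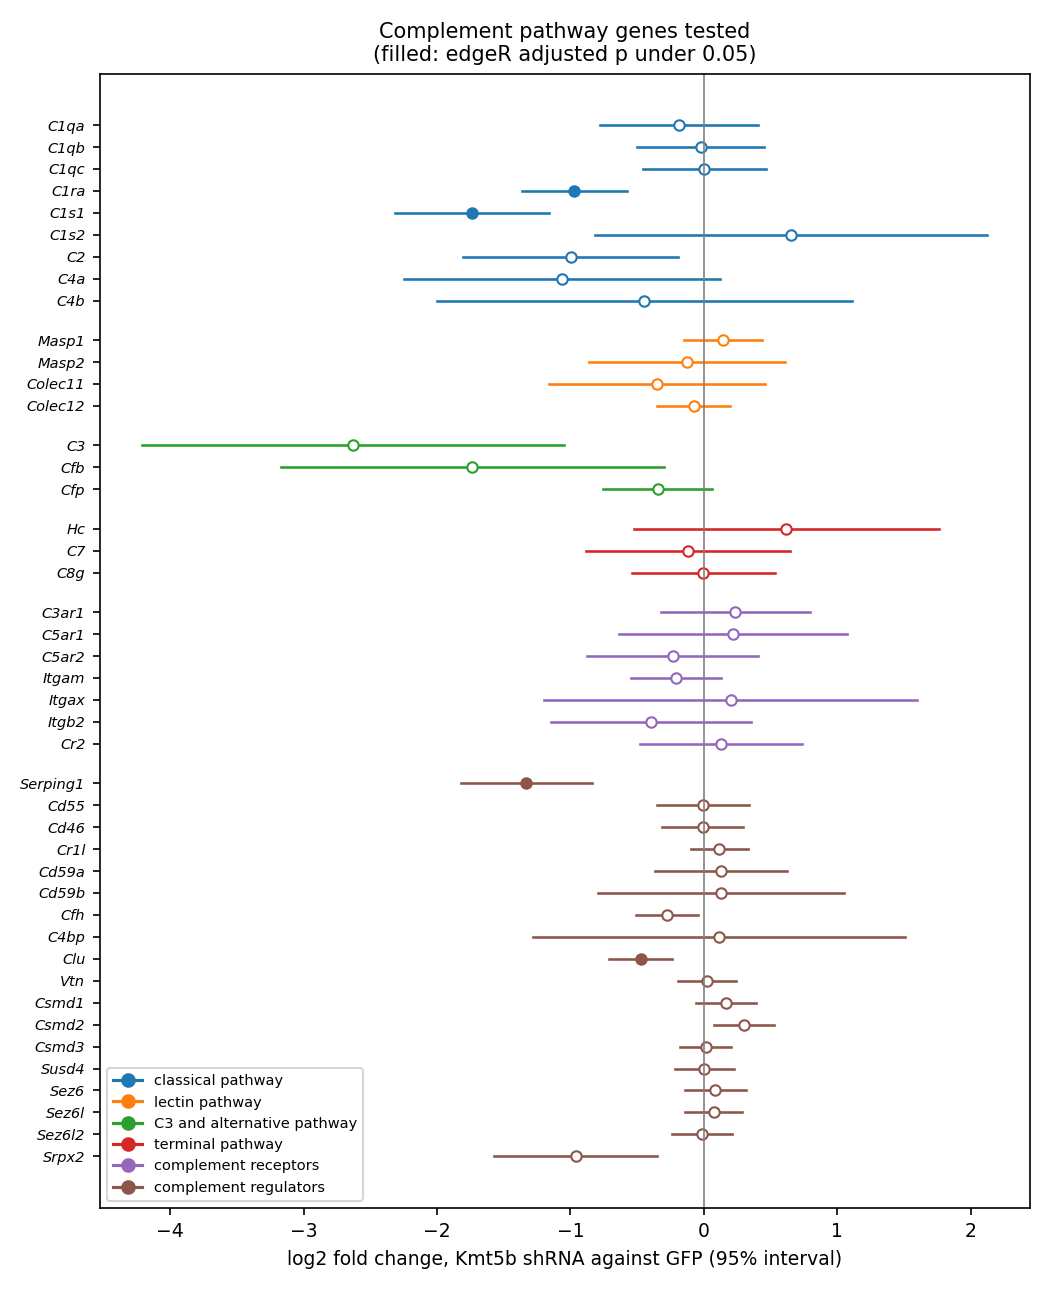
Log2 fold change of Kmt5b shRNA against GFP with its 95% interval (x axis) for the 44 complement genes tested, coloured by list, with filled circles where the edgeR adjusted p was under 0.05. The filled genes, C1ra, C1s1, Serping1 and Clu, lie below 0, and C3 has the interval reaching farthest down, to -4.21.

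In bulk tissue, fewer cells of a type and less RNA per cell cannot be told apart, so marker genes of the cells that make or carry complement were measured beside these results. Over all genes tested, 5.69% passed as lower and 2.77% as higher, and 12.7% were lower and 9.84% higher without overlap. In the fit of 15778 protein-coding genes, 184 passed as lower and 471 as higher. Neuronal markers, which the labelled tissue should hold, summed to 8880 to 10631 CPM under GFP and 8622 to 9905 CPM under the hairpin, and markers of the neighbouring choroid plexus summed to at most 7.55 CPM in any library. Markers of microglia, the main source of C1q, gave a summed level of 748 to 963 CPM in the GFP and 778 to 1029 CPM in the Kmt5b shRNA libraries. Of 18 tested, 1 was higher, the scavenger-receptor-like gene Fcrls (22.8 ± 4.06 against 35.7 ± 1.00 CPM, SD, n = 3 per group), with an edgeR adjusted p of 0.00195, and 3 did not overlap, all higher. The summed border macrophage markers overlapped, at 41.5 to 56.6 and 39.0 to 55.2 CPM, with 0 of 8 called. Cd163 alone of these 8 did not overlap, at 1.95 to 2.70 against 3.25 to 4.27 CPM (edgeR adjusted p = 0.0917). Astrocyte markers summed to 5199 to 5366 CPM in the GFP and 4474 to 5053 CPM in the Kmt5b shRNA libraries, without overlap, and 3 of 12 were lower (Aqp4, Gja1 and Slc4a4). The median log2 fold change of the 12 was -0.17, with 3 above 0, and 4 did not overlap, all lower. Slc1a2, the largest part of the sum, overlapped at 2784 to 2988 against 2417 to 2884 CPM (edgeR adjusted p = 0.554). Aqp4, the astrocyte water channel, had a log2 fold change of -0.64 ± 0.12 (SE, edgeR adjusted p = 0.00178). Summed reactive astrocyte genes overlapped, at 306 to 512 and 415 to 654 CPM, with 0 of 10 called and Gfap at 262 ± 72.9 and 342 ± 79.9 CPM (SD, n = 3 per group). S1pr3, at 12.8 to 14.9 against 10.1 to 11.6 CPM, was the 1 reactive astrocyte gene without overlap (edgeR adjusted p = 0.202). Summed fibroblast and meningeal markers also overlapped, at 145 to 200 and 123 to 176 CPM, with 0 of 12 called. Of these, Dcn alone did not overlap, at 15.3 to 25.2 against 9.21 to 14.8 CPM (edgeR adjusted p = 0.0701).

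Markers of T, NK and B cells were also lower in the Kmt5b shRNA libraries. Their sums were 314, 1065 and 1163 CPM under GFP but 60.0, 47.6 and 59.5 CPM under the hairpin. The highest gene was Igkc, the immunoglobulin kappa constant region, at 74.6, 792 and 341 against 15.4, 2.75 and 6.34 CPM. It did not pass (edgeR adjusted p = 0.112, and 0.074 to 0.314 with a library left out), though it did in 9 of 23 alternatives. Without Igkc, a sum added after seeing the data, the other 16 genes reached 239, 273 and 822 against 44.6, 44.8 and 53.2 CPM. Of 17 tested, 7 were lower and 0 higher, with a median log2 fold change of -2.12, and 12 did not overlap, all lower. For all genes tested, 5.69% passed as lower and 12.7% were lower without overlap. The T cell genes Cd4 and Cd3g and the B cell gene Cd79a were among the 7, with log2 fold changes of -1.65, -1.79 and -2.72. Granulocyte and monocyte markers were low, at 9.36 to 35.2 and 5.68 to 12.5 CPM, with 0 of 6 called, 1 lower without overlap and Ly6g at 0 counts in every library. The Ly6c2 gene of monocytes was at 3.12, 9.27 and 18.2 against 1.23, 1.61 and 3.01 CPM (edgeR adjusted p = 0.232). Interferon response genes had overlapping sums of 436 to 588 and 506 to 849 CPM, a median log2 fold change of 0.50, and 3 of 27 higher (Rsad2, Cxcl10 and Oasl2), with 10 that did not overlap, all higher. The shares over all genes tested were 2.77% passing as higher and 9.84% higher without overlap. Among genes sharing no sequence, 1 of 13 lymphocyte genes (Cd4), 1 of 12 astrocyte genes (Aqp4), 1 of 16 microglial genes (Fcrls) and 0 of 21 interferon response genes passed. In that fit 0.223% of genes passed as lower and 0.446% as higher. Oligodendrocyte markers, at 2986 to 4606 and 1656 to 3490 CPM with a median log2 fold change of -0.41, had 0 of 12 called. None passed among 10 neuronal, 10 endothelial, 9 mural and 5 choroid plexus markers tested. The part of lymphocytes, astrocytes or the interferon response in the complement values was not tested.

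**Figure D5:**
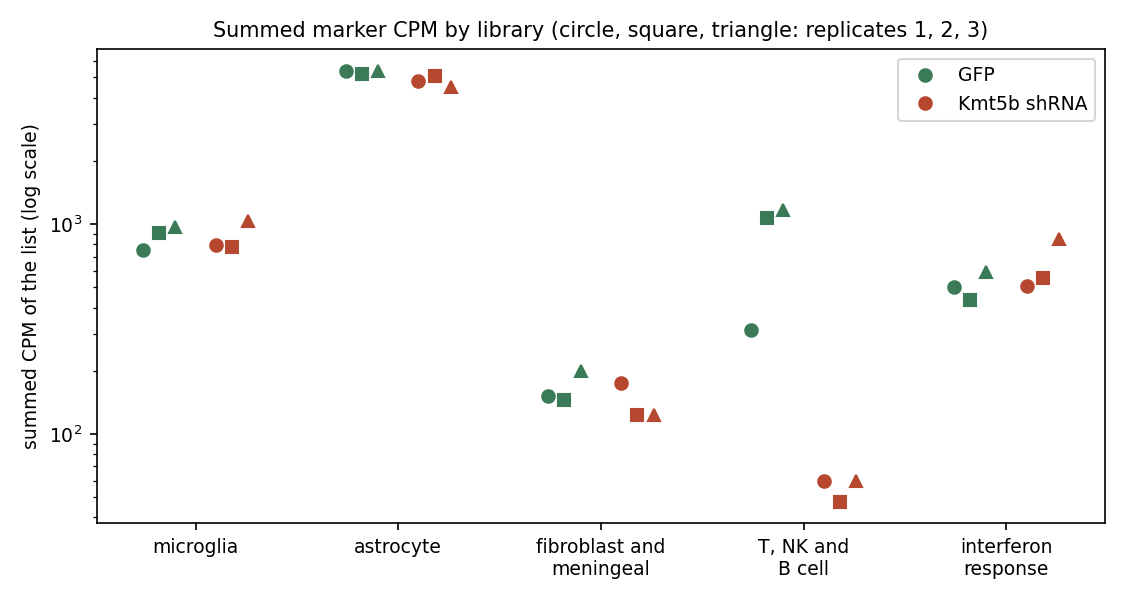
Summed CPM (y axis, log scale) of 5 marker lists in each GFP (green) and Kmt5b shRNA (red) library, with replicates 1, 2 and 3 as circles, squares and triangles. T, NK and B cell markers lie between 314 and 1163 CPM in the GFP and at or below 60.0 CPM in the Kmt5b shRNA libraries, while microglial and fibroblast sums overlap.

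GFP replicate 3 was the highest of the 6 libraries for C2, C3, C4b and Serping1, and Kmt5b shRNA replicate 3 for C1qa, C1qb and C1qc. The correlations between members are a description with no test, since the points are the same 6 libraries in 2 groups. On log2 CPM, the Pearson r between C1q chains was 0.919 to 0.968. C4b had an r of 0.820 to 0.940 with the 3 chains, 0.579 with Serping1 and 0.441 with C1ra. C3 had an r of 0.368 to 0.622 with the 3 chains, 0.911 with Serping1, 0.900 with C1ra and 0.676 with C4b. Cd55 ran against C1q, with an r of -0.97 with C1qc. The genes most like summed C1q, by r over the 6 libraries among 12780 genes of at least 1 in average log2 CPM, were Ctsz (0.995), Rgs10 (0.990), C2cd2 (0.989), Tor3a (0.989) and Cpsf4 (0.988). Ctsz encodes the lysosomal protease cathepsin Z. Those most like Serping1, among 12782, were Cachd1 (0.994), Pgd (0.989), Plcb3 (0.986), S1pr3 (0.979) and Prkd2 (0.977). Cachd1 spanned 6.99 to 10.5 CPM over the 6 libraries, a narrower range than that of Serping1. Of these 5 genes Prkd2 alone passed (log2 fold change -0.78, edgeR adjusted p = 0.0247).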

How the data were processed

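Bulk prefrontal cortex RNA was measured in 6 libraries, grouped and numbered by their titles. Per the labels' protocols, libraries were stranded total RNA depleted of ribosomal RNA, with Cutadapt and TopHat2, whereas the submitters' processing notes name STAR, featureCounts, DESeq2 and mm10. The protocol also speaks of biological duplicates. The authors deposited raw read counts per gene symbol. The settings of that counting, and thus its use of strand and of reads with several matches, are not given in the sources used here. The 54429 symbols matched GENCODE M21 (mm10) in 53749 cases. Total counts ranged from 29490771 to 74723284, and replicates differed by far more than sampling noise (chi-square per gene of 18.2 to 45.0).

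The main test ran in R 4.3.3 on edgeR 4.0.16, with filterByExpr, TMM scaling, the robust quasi-likelihood fit (legacy=TRUE) and a Benjamini-Hochberg adjusted p under 0.05 over all genes tested. SE is the absolute log2 fold change over the square root of F. The 95% intervals rest on each gene's total degrees of freedom, the residual ones plus those borrowed across genes by the quasi-likelihood fit. Exact permutation tests and promoter searches used Python 3.11.15 and SciPy 1.17.1. Genes sharing no sequence were found among GENCODE M21 transcripts with BLAST+ 2.17.0 at 90% identity, counting matches of at least 200 nucleotides or 50% of a transcript. Alternatives were other scalings and filters, DESeq2 1.42.0, limma 3.58.1 (voom), paralogue counts added, a replicate block and each library left out. Both edgeR fits were checked on simulated counts, and called changes had the right sign. Unchanged genes made up 12.2% of the calls in the fit of all genes and 10.7% among genes sharing no sequence, more than the threshold of 0.05 allows. Log2 changes of 1 were recovered in 79% and 86% of 100 genes, and those of 0.5 in 22% and 47%. Smaller changes were thus often missed. The excess of false calls bears on every call, and calls close to the threshold are the least sure.

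Named genes were the 9 members, their near-identical paralogues, from each pathway list the called genes and the 2 of highest mean CPM, from each marker list the gene of highest mean and up to 3 called genes, Kmt5b, and the 5 genes most correlated with Serping1 and with C1q at log2(CPM + 0.5). C1s2, Cfb, Gm20547 and the remaining members of the marker lists were named after their values were seen. The members and lists were chosen with earlier results of these data known.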

Additional observations from a re-analysis of the deposited data

How the results depend on the processing

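Over 34 alternative settings, 22 to 34 of which could be fitted for a given named gene, and of which those on genes sharing no sequence with a library left out, a block or another test and those on edgeR without the robust option with a library left out were added after seeing the data, 0 called values changed sign, and 14 of the 39 named genes that were not called crossed 0. The ratios were computed within each library and not under these settings. The Serping1 to C1q ratio kept its direction and lack of overlap with C1qa, C1qb or C1qc alone below it. C1ra in place of Serping1 gave the same directions against C1q and against C3, without overlap. Counts of calls changed most. Without a filter on low counts, 9 of 57 pathway genes were called, where 7.41% of 39044 genes were. With the replicate block there were 704 higher and 1507 lower genes, 9.05% of 24419 called. It called 4 of 9 members lower (C1ra, C3, C4b and Serping1, with an edgeR adjusted p of 2.69e-08 for C3 and 0.0325 for C4b) and 7 of 44 pathway genes. Same-numbered libraries had deviations correlated at r = -0.0344, -0.0102 and 0.218, and GFP replicate 1 correlated best with Kmt5b shRNA replicate 2 (0.21), so the numbers were not taken as pairs. Protein-coding genes alone gave 471 higher and 184 lower, 4.15% of 15778 called, with 2 of 9 members and 4 of 43 pathway genes. Genes sharing no sequence gave 54 higher, 27 lower, 1 of 5 members and 1 of 27 pathway genes, where 0.669% of genes were called. There the fit without the robust option gave 56, 33 and 2 of 27 pathway genes, the replicate block 94, 94 and 2 of 27, and DESeq2 282, 199 and 3 of 38. The shares of all genes called in these fits were 0.735%, 1.55% and 3.43%. With 1 library left out these genes gave 123, 15 and 9 higher and 108, 7 and 2 lower without GFP replicates 1, 2 and 3, and 8, 72 and 15 higher and 3, 17 and 13 lower without Kmt5b shRNA replicates 1, 2 and 3. These fits with a library left out called 0 to 1 of 5 members and 0 to 2 of 27 to 31 pathway genes, where 0.0898% to 1.88% of genes were called. Over all genes, leaving out a library gave 467 to 822 higher, 1229 to 1510 lower, 2 to 3 of 9 members and 4 to 6 of 44 to 49 pathway genes, where 6.72% to 9.23% of genes were called. Without the robust option it gave 431 to 767 higher, 1231 to 1506 lower, 3 of 9 members and 4 to 7 of 44 to 49 pathway genes, where 6.59% to 9% were called. C2 passed without a filter (edgeR adjusted p = 0.0323). The causes of the other shifts were not tested. GFP replicate 2 was the shallowest library, and 3 libraries a group limit what small changes could be seen.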
